A study of Mus musculus with 24 samples.

Results

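The 10 genes described here encode proteins that bring fatty acids into cells, bind them in the cytosol or join them to coenzyme A. They are the scavenger receptor gene Cd36, the fatty acid binding protein genes Fabp1, Fabp2, Fabp4 and Fabp7, the fatty acid transport protein genes Slc27a1, Slc27a2 and Slc27a4, and the long-chain acyl-CoA synthetase genes Acsl1 and Acsl4. They were chosen by symbol, and all 10 were found among the 56205 genes of the RNA-Seq count table and passed the filter on low counts. RNA was taken from whole livers of C57BL/6J mice fed a high-fat diet (FFD) or a control diet for 20 weeks, with 12 libraries per diet. The design lists 6 mice per diet of each sex, and the study's methods give mice of this strain as aged 8 to 10 weeks when feeding began and describe a diet of palm oil, fructose and cholesterol, a make-up that the labels of these libraries do not state. The labels give neither the sex of a library nor whether each library came from its own animal, so the p-values measure the spread between these libraries.

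Long-chain fatty acids reach hepatocytes from adipose tissue, from lipoproteins and from the diet, and cross the plasma membrane with the help of CD36 and of the transport proteins encoded by Slc27 genes. Binding proteins then carry them through the cytosol, and acyl-CoA synthetases activate them for oxidation or for storage as triglyceride. FABP1 is the abundant binding protein of hepatocytes, FABP2 is best known from enterocytes, FABP4 from adipocytes, macrophages and endothelium, and FABP7 from the nervous system. Many of these genes are regulated by the nuclear receptors PPARα and PPARγ, which bind DNA together with RXR, and Cd36 is a known PPARγ target in fatty liver.

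Depth ranged from 14468418 to 22112552 counts per library. Levels are given as CPM, counts per 1000000 counts of the library total after scaling with the TMM method of edgeR. A gene was called at an adjusted p (edgeR quasi-likelihood test, Benjamini-Hochberg over 17913 genes) of at most 0.01 and an absolute log2FC over 0.5. Replicates 1 to 6 of each diet held 2664 to 6285 counts of Xist and 0 of the Y-linked Ddx3y, whereas replicates 7 to 12 held 0 to 3 counts of Xist and 448 to 1016 of Ddx3y. This split at 1000 Xist counts is not a labelled group, and values are given within it because several of the genes below differed along it. FFD replicate 9 stood apart, with the highest TMM factor (1.34) and 48.1 CPM of the bile duct keratin Krt19 against at most 2.49 CPM in any control library. Of 4 bile duct markers, 3 were called higher, with sums of 5.28 to 151 CPM on FFD, the highest in that library, and of 4.78 to 13.99 CPM in controls. Control replicate 10 had the lowest TMM factor (0.679). With library totals in place of TMM, the median log2FC of all genes moved from -0.03 to 0.26, so absolute directions depend on the scaling by about that much.

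On FFD, the uptake receptor gene Cd36 was 2.06-fold, Fabp4 3.91-fold and Fabp7 1.79-fold higher than in controls. The hepatocyte genes Fabp1 and Acsl1 were lower, at 0.603 and 0.623 of the control level, and Fabp2, Slc27a1, Slc27a2, Slc27a4 and Acsl4 were not called. Of all genes tested, 13.2% were called higher and 4.99% lower, against 3 and 2 of the 10 genes, and 18.2% of all genes were called in either direction. The median log2FC of the 10 genes was 0.08, against -0.03 over all genes tested. None of the 10 separated the diets without overlap in all 24 libraries, against 1.48% of all genes in the direction of a rise and 0.402% in the direction of a fall. With library totals in place of TMM, 4 of the 10 genes were called higher and 0 lower (edgeR; 1.78-fold for Slc27a1, the added gene), while Fabp1 and Acsl1 kept an adjusted p of 0.000806 and 0.00619 with log2FC of -0.44 and -0.41, short of the fold threshold.

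**Figure D1:**
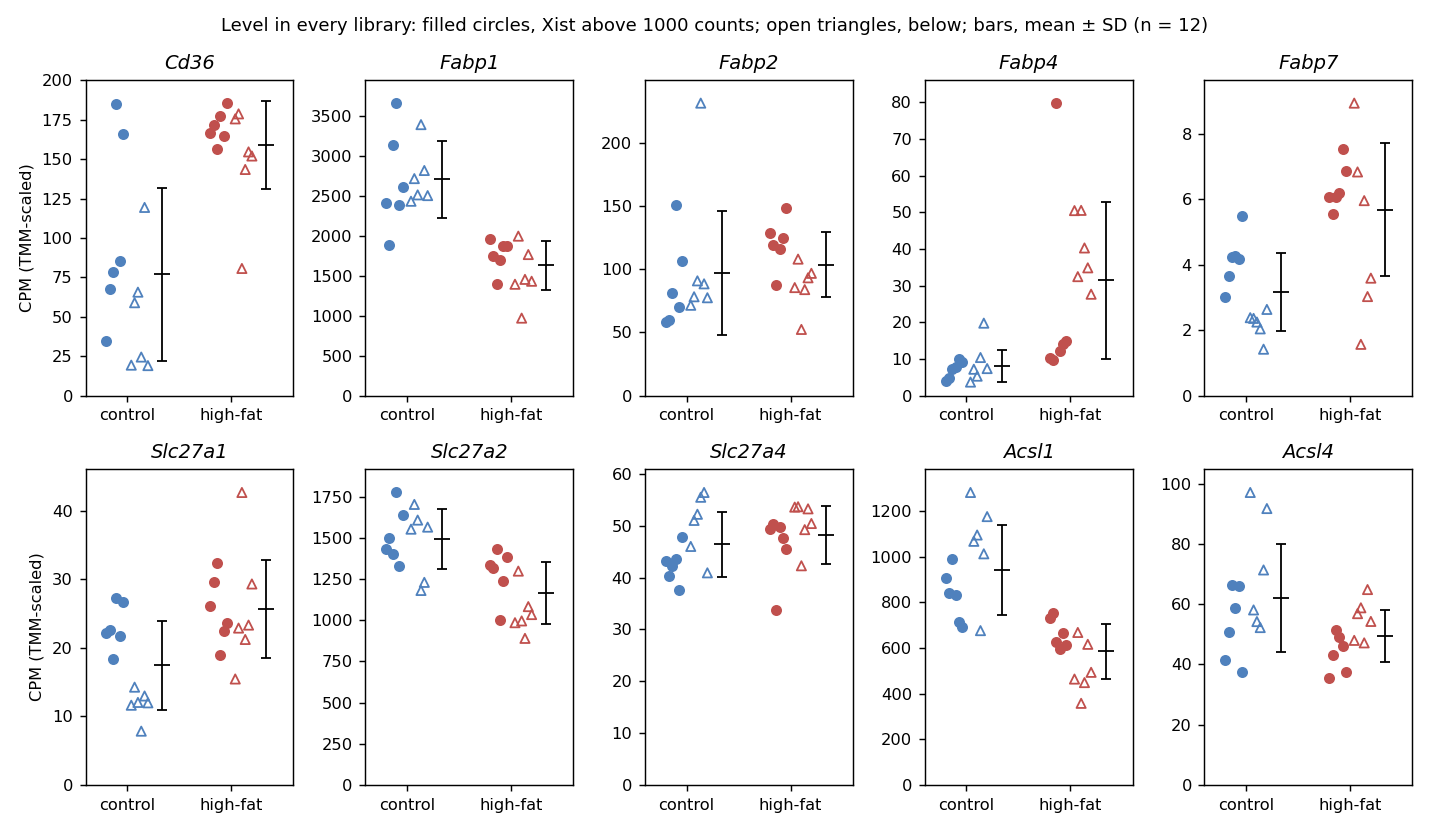
CPM of each of the 10 genes (linear axis from 0) in the 12 control (blue) and 12 FFD libraries (red); filled circles mark libraries with Xist above 1000 counts, open triangles those below, and the black bar with whiskers gives the mean and SD. Cd36, Fabp4 and Fabp7 sit higher and Fabp1 and Acsl1 lower on FFD, each with some overlap between the diets.

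Levels between genes were compared per kilobase of transcript, because the transcripts differ in length from 553 bases (Fabp1) to 5280 bases (Acsl4). On the control diet Fabp1 was the highest at 4890 ± 879 CPM per kilobase (SD, n = 12), followed by Slc27a2 at 511 ± 63.2, Acsl1 at 241 ± 50.4 and Fabp2 at 101 ± 50.8. Cd36 followed at 22.7 ± 16.2 CPM per kilobase, and its spread reached down to those of Acsl4 (11.8 ± 3.41), Slc27a4 (11.4 ± 1.53), Fabp4 (mean 8.998, SD 4.79) and Slc27a1 (6.24 ± 2.32) but not to that of Fabp7 (3.93 ± 1.49). Within that lower group, neighbours in the order did not differ beyond their spread. On FFD Cd36 had the highest mean of the lower group (46.8 ± 8.14), and Fabp4 came next (35.1 ± 23.9), with a spread that took in that of Cd36 and reached down to that of Slc27a4 (11.9 ± 1.39). Fabp1 made up 95.7% ± 1.39 of the per-length sum of 7 Fabp genes on the control diet and 94.2% ± 1.36 on FFD. The share of Fabp4 in that sum was 0.176% ± 0.0884 on the control diet and 1.26% ± 1.02 on FFD. In the Slc27 family, Slc27a2 and its relative Slc27a5 made up most of the per-length sum, with 53.1% ± 6.80 and 45.0% ± 6.97 on the control diet and 56.9% ± 5.99 and 39.9% ± 6.63 on FFD. Acsl1 made up 65.5% ± 5.93 of the Acsl sum on the control diet and 63.1% ± 5.05 on FFD, most of the rest being Acsl5. These shares are descriptions and were not tested.

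**Figure D2:**
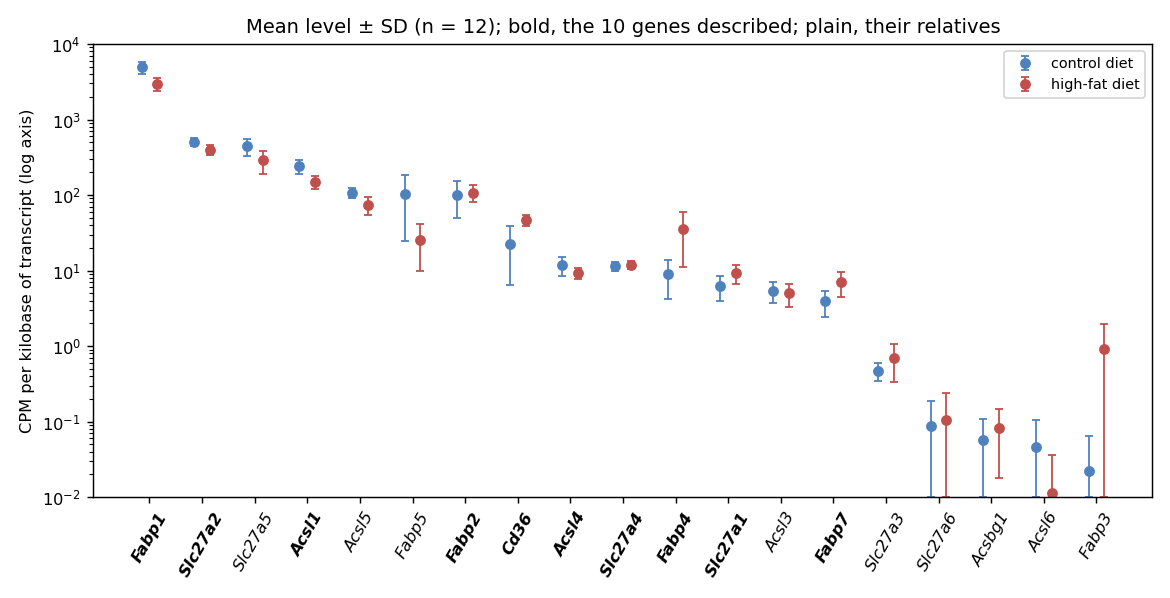
Mean CPM per kilobase of transcript (log axis) with SD over 12 libraries, control diet in blue and FFD in red, for the 10 genes (bold) and 9 relatives; Fabp6, with at most 1 count in a library, is left out and whiskers are clipped at the axis floor. Fabp1 lies above all others at 4890 on the control diet and 2947 on FFD.

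Cd36 encodes the membrane receptor that facilitates uptake of long-chain fatty acids and oxidized lipoproteins. Its level in the 12 control libraries ran from 19.0 through a median of 66.7 to 185 CPM. On FFD it ran from 80.6 through 166 to 186 CPM. The FFD libraries other than replicate 9 lay within a narrow band of 143 to 186 CPM, while the controls were scattered, with replicates 4 (185 CPM), 5 (85.6 CPM), 6 (166 CPM) and 11 (119 CPM) inside the full range of FFD. The SD was 27.7 CPM on FFD and 54.9 CPM on the control diet. Cd36 was 2.06-fold higher on FFD (log2FC 1.04, SE 0.30, adjusted p = 0.00746, edgeR). This call was close to the threshold. It was lost when any 1 of 15 libraries was left out (control replicates 1, 2, 3, 5, 7, 8, 9, 10 and 12 and FFD replicates 1, 4, 5, 6, 7 and 8), with adjusted p up to 0.0132 and log2FC from 0.95 to 1.24 over all 24 such fits.

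Among libraries with Xist above 1000 counts, the log2FC of Cd36 was 0.74 (SE 0.29, adjusted p = 0.101, edgeR), and within those below it was 1.55 (SE 0.41, adjusted p = 0.00799). The difference between the sets was -0.80 (SE 0.53) and did not pass the test (adjusted p = 0.385).

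Cd36 lies on mouse chromosome 5 (chr5:17781690-17888801, GRCm38, minus strand). The RefSeq window from 250 bases before to 50 bases after its start (chr5:17835847-17836146, minus strand, GRCm38.p6) is printed here with that of Fabp1 (chr6:71199629-71199928, plus strand), because both genes moved with the diet, in opposite directions, and both are known targets of PPAR receptors. The Cd36 window lies inside the gene span given above, whose minus-strand model begins at 17888801. No window at that end was searched. Capitals mark AGGTCA, the hexamer that these receptors read, on either strand (TGACCT on the strand shown).
Cd36: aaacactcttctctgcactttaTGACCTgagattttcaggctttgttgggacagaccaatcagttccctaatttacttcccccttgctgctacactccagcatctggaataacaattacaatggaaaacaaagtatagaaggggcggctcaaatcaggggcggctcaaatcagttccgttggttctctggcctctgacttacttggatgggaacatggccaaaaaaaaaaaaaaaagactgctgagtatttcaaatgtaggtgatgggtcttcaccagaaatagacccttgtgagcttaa
Fabp1: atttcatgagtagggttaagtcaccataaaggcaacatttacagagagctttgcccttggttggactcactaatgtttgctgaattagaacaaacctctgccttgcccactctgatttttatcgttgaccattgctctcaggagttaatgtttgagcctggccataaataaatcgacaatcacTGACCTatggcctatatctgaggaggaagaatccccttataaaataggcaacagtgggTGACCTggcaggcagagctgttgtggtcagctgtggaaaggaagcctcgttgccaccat
The hexamer began 228 bases before the start in Cd36, and 67 and 9 bases before it in Fabp1. It was also in the windows of Fabp7 (171 bases before the start) and Slc27a2 (220 bases before), so 4 of the 12 RefSeq windows of 9 of the genes held it, against 16.3% of 32851 mouse promoter windows of this length. The exact DR1 motif, a direct repeat of the hexamer with a single base of any kind between its copies, was searched on both strands and was in none of these 12 windows and in 0.0396% of all windows. These are matches of letters only, and imperfect repeats were not searched. Fabp4 had no window in the table.

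Fabp4 (chr3:10204088-10208576, minus strand, GRCm38) encodes the binding protein of adipocytes and macrophages. It had the largest log2FC of the 10 genes. Its control levels ran from 3.68 through a median of 7.36 to 19.8 CPM, the last in replicate 11. On FFD they ran from 9.70 through 30.1 to 79.8 CPM. Of the 12 FFD libraries, 7 lay above every control, and 9 controls lay below every FFD library. Fabp4 was 3.91-fold higher on FFD (log2FC 1.97, SE 0.34, adjusted p = 6.29e-05, edgeR), and it was called in all 24 fits that left out 1 library.

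The FFD libraries fell into separate bands. Among those with Xist above 1000 counts, 5 of 6 held 9.70 to 15.0 CPM of Fabp4 and replicate 3 held 79.8 CPM, the highest level of the series. Those with Xist below 1000 counts held 27.7 to 50.6 CPM, against 3.68 to 19.8 CPM in their controls, with no overlap, as for 12.6% of all genes in that direction. Within the set above, the log2FC was 1.72 (SE 0.48, adjusted p = 0.0285, edgeR) and fell to 0.78 (SE 0.20, adjusted p = 0.0156) without replicate 3, so that 1 library set the size of that value. Within the set below, it was 2.16 (SE 0.33, adjusted p = 0.000161). The difference between the sets was -0.43 (SE 0.63, adjusted p = 0.731) and did not pass the test. FFD replicate 3 also held 118 CPM of the Kupffer cell marker Marco and 147 CPM of the sinusoidal endothelial receptor Stab2, the highest of the 24 libraries for both. Its summed endothelial markers (334 CPM) were also the highest, but its summed Kupffer cell markers (638 CPM) were below those of FFD replicate 7 (816 CPM). Another Kupffer cell marker, Clec4f, was at 189 CPM in FFD replicate 3, below FFD replicate 7 (221 CPM) and control replicate 4 (233 CPM). The summed macrophage markers (195 CPM) and the Cd68 level (19.5 CPM) of FFD replicate 3 were the lowest of the 12 FFD libraries.

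Markers of some other cell types also differed between the diets, where 13.2% of all genes were called higher and 4.99% lower. In bulk tissue, fewer cells of a type and less RNA per cell cannot be told apart. All 6 macrophage markers were called higher, and their summed level ran from 195 to 485 CPM on FFD and from 39.6 to 183 CPM in controls. Of 6 stellate cell markers, 4 were called higher, with sums of 277 to 586 CPM against 141 to 332 CPM. Of 6 endothelial markers, 1 was called higher, with sums of 148 to 334 CPM against 128 to 279 CPM. The adipocyte markers Adipoq, Plin1, Lep and Retn had at most 7 counts in any library, and the other adipocyte markers, Cfd and Adrb3, were not called (the list summed to 6.57 to 28.0 CPM on FFD and 4.59 to 31.2 CPM in controls). The part of the macrophage and endothelial shares in the Fabp4 and Cd36 levels was not tested.

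Fabp7 (chr10:57784881-57788450, plus strand, GRCm38), the binding protein best known from neural cells, was the lowest of the 10 genes per kilobase. Its levels in controls ran from 1.42 through a median of 2.81 to 5.49 CPM (52.5 counts at the median). On FFD they ran from 1.56 through 6.07 to 8.93 CPM. Of FFD libraries, 9 lay above every control, and replicates 9 (1.56 CPM), 11 (3.02 CPM) and 12 (3.59 CPM) lay within the controls. Fabp7 was 1.79-fold higher (log2FC 0.84, SE 0.23, adjusted p = 0.00515, edgeR). The call was lost without FFD replicate 7 (adjusted p = 0.0103) and with limma-voom (log2FC 0.75, adjusted p = 0.0246). In controls the Xist sets were apart, with 2.998 to 5.49 CPM in replicates 1 to 6 and 1.42 to 2.63 CPM in replicates 7 to 12. In the set above, the diets did not overlap (5.55 to 7.53 CPM on FFD), as for 3.51% of all genes in that direction and 2.39% in the other, and the log2FC of 0.63 just missed the call (SE 0.15, adjusted p = 0.0111). In the set below, the diets overlapped, and the log2FC of 1.20 was not called (SE 0.35, adjusted p = 0.0133).

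The Kupffer cell marker Clec4f, a lectin receptor of resident liver macrophages, varied with Fabp7 between FFD libraries. Across the 12 FFD libraries, with the means of the Xist sets subtracted, log2(CPM + 1) of both genes correlated with Pearson's r of 0.956 (permutation p = 0.00163, adjusted p = 0.0364 over the 24 coefficients of 6 gene pairs in 2 diets) and Spearman's rho of 0.909 (permutation p = 0.0183, adjusted p = 0.073). Leaving out the 2 libraries whose Fabp7 level was farthest from its median gave 0.913, and it was 0.950 without replicate 9. It rested on the 6 libraries with Xist below 1000 counts, where r was 0.98, against 0.05 in the other 6. In controls r was 0.149 (permutation p = 0.664, adjusted p = 0.839). Of the 6 Kupffer cell markers, 2 were called higher, with sums of 179 to 816 CPM on FFD and 114 to 491 CPM in controls, and the share of these cells in the Fabp7 level was not tested.

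Fabp1 (chr6:71199827-71205023, plus strand, GRCm38), the main fatty acid carrier of the hepatocyte cytosol, fell. Its control levels ran from 1886 through a median of 2559 to 3659 CPM. On FFD they ran from 969 through 1720 to 1995 CPM. The groups overlapped only through control replicate 2 (1886 CPM), and 11 of 12 controls lay above every FFD library. The log2FC was -0.73 (SE 0.12, adjusted p = 2.77e-05, edgeR), which left 0.603 of the control level. It was called in all 24 fits that left out 1 library, with log2FC from -0.77 to -0.66, and it was -0.60 (SE 0.14, adjusted p = 0.0129) in the libraries with Xist above 1000 counts and -0.85 (SE 0.16, adjusted p = 0.00103) in those below.

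Acsl1 (chr8:46471037-46536051, plus strand, GRCm38), the main hepatic long-chain acyl-CoA synthetase, also fell. Its levels ran from 676 through 948 to 1281 CPM in controls and from 357 through 614 to 754 CPM on FFD. Of FFD libraries, 10 lay below every control. The log2FC was -0.68 (SE 0.13, adjusted p = 0.000147, edgeR), with 0.623 of the control level left, and the call stood in all 24 fits that left out 1 library. The lowest Fabp1 and Acsl1 levels were both in FFD replicate 9. Without it and control replicate 10 together, log2FC was -0.64 for Fabp1 and -0.67 for Acsl1, and both stayed called.

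Of 6 hepatocyte markers, 4 were called lower on FFD, 1 was not called and 1, the drug-metabolizing enzyme Cyp3a11, rose from 264 to 1288 CPM in controls to 1511 to 2812 CPM on FFD. Their summed level, most of it albumin, ran from 38247 to 87991 CPM on FFD and from 80536 to 124182 CPM in controls. With library totals in place of TMM, 1 of the 6 was called lower and 1 higher. The part of these levels in the falls of Fabp1 and Acsl1 was not tested.

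**Figure D3:**
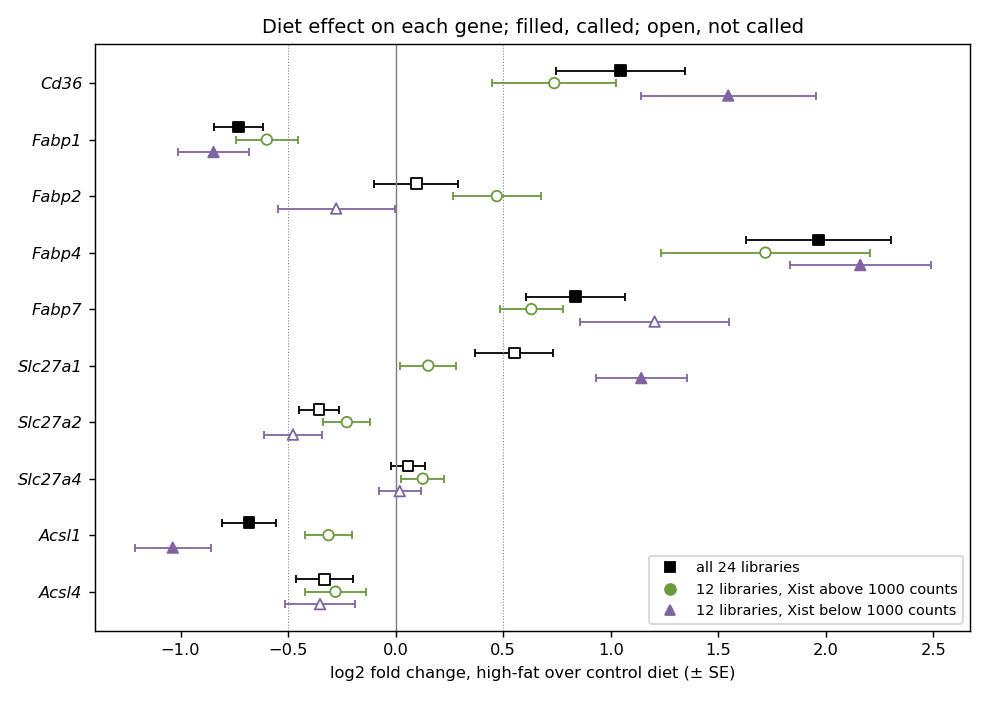
log2FC of the FFD over the control diet with SE for each gene in all 24 libraries (black squares), in the 12 with Xist above 1000 counts (green circles) and in the 12 below (purple triangles); filled symbols were called, open ones were not, and dotted lines mark the fold threshold. For 9 of the 10 genes the 3 estimates have the same sign, while Fabp2 has 0.47 in the set above and -0.28 in the set below.

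The diet effect on 2 of the 10 genes differed between the Xist sets, in a test of the interaction that 10.2% of all genes passed (edgeR, adjusted p at most 0.05). Slc27a1 (chr8:71568882-71587302, plus strand, GRCm38) encodes the transport protein known from muscle and adipose tissue. Control levels were 18.4 to 27.2 CPM in the libraries with Xist above 1000 counts and 7.84 to 14.3 CPM in those below. On FFD they were 19.0 to 32.4 CPM and 15.4 to 42.6 CPM, so the sets that were apart in controls overlapped on FFD. In the set below, the diets did not overlap, as for 12.6% of all genes in that direction, and Slc27a1 was called higher (log2FC 1.14, SE 0.21, adjusted p = 0.000741). In the set above, the log2FC was 0.15 (SE 0.13, adjusted p = 0.483). The difference was -0.98 (SE 0.26, adjusted p = 0.0148), and it was -1.34 (SE 0.30, adjusted p = 0.0036) with library totals in place of TMM. FFD replicate 9 (42.6 CPM) and control replicate 10 (7.84 CPM) held the highest and lowest Slc27a1 levels. The test of the difference was not run without them. Over all 24 libraries the log2FC was 0.55 (SE 0.18) and the adjusted p of 0.0177 missed the threshold, which it passed without control replicate 4 (adjusted p = 0.00797), control replicate 6 (0.00811) or FFD replicate 7 (0.00924), and with the set as a covariate (0.00291). Without FFD replicate 9 and control replicate 10 together, the log2FC was 0.39 (adjusted p = 0.0522).

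Acsl1 differed in the other direction. In the set below, controls held 676 to 1281 CPM and FFD libraries 357 to 668 CPM, without overlap, as for 9.66% of all genes in that direction, and the log2FC was -1.04 (SE 0.18, adjusted p = 0.000396, edgeR). In the set above, controls held 694 to 988 CPM and FFD libraries 595 to 754 CPM, and the log2FC was -0.31 (SE 0.11, adjusted p = 0.0669). The difference was 0.73 (SE 0.21, adjusted p = 0.0249). It did not pass with library totals (0.41, SE 0.22, adjusted p = 0.207). TMM factors on FFD were 0.995 to 1.06 in the set above and 1.12 to 1.34 in the set below, and those of controls were 0.892 to 1.01 and 0.679 to 0.956. Hepatocyte marker sums on FFD were 65240 to 87991 CPM in the set above and 38247 to 47766 CPM in the set below, and their part in the difference was not tested.

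In the libraries with Xist above 1000 counts, 0 of the 10 genes were called, where 2.9% of all genes were called higher and 0.882% lower (edgeR). At an unadjusted p under 0.05 they were Cd36, Fabp1, Fabp2, Fabp4, Fabp7 and Acsl1, and without FFD replicate 3 Fabp7 was called (log2FC 0.65, adjusted p = 0.00948). In the libraries below, Cd36, Fabp4 and Slc27a1 were called higher and Fabp1 and Acsl1 lower, where 14.4% and 7.99% of all genes were called. Apart from Slc27a1 and Acsl1, the tests of the difference between the sets did not pass, with adjusted p from 0.209 (Fabp2) to 0.883 (Acsl4).

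The other members showed smaller differences. Slc27a2, a transport protein and very-long-chain acyl-CoA synthetase of hepatocytes, held 1180 through 1524 to 1775 CPM in controls and 889 through 1159 to 1433 CPM on FFD. Of its FFD libraries, 6 lay below every control. Its adjusted p was 0.00383 (edgeR), but the log2FC of -0.36 (SE 0.09) was under the fold threshold, and it was -0.08 (adjusted p = 0.518) with library totals. Acsl4, which prefers arachidonic acid, held 37.4 through 58.4 to 97.1 CPM in controls and 35.5 through 48.5 to 64.8 CPM on FFD (log2FC -0.33, SE 0.13, adjusted p = 0.0488). The 2 highest Acsl4 levels were in control replicates 7 (97.1 CPM) and 12 (91.7 CPM).

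Slc27a4, a broadly expressed transport protein, had almost the same range on both diets, 37.5 to 56.4 CPM in controls and 33.8 to 53.7 CPM on FFD. Its log2FC was 0.06 (SE 0.08, adjusted p = 0.593, edgeR). Fabp2 held 58.4 through 79.5 to 231 CPM in controls and 52.3 through 102 to 148 CPM on FFD, and its log2FC was 0.10 (SE 0.20, adjusted p = 0.727). Both extremes of Fabp2 were in the libraries that stood apart, FFD replicate 9 (52.3 CPM) and control replicate 10 (231 CPM). Without these, its log2FC was 0.35 (SE 0.14, adjusted p = 0.047). The enterocyte markers Alpi, Sis and Cdx2 had 0 counts in every library and Lct at most 2. Vil1, another of the 6 enterocyte markers, had up to 76 counts on FFD, in replicate 9, and up to 11 in controls (log2FC 1.51, adjusted p = 0.0208, edgeR). FFD replicate 9 also had the highest bile duct marker sum. Vil1 was called higher with library totals, as was Apoa4. Apoa4, which liver also makes, made up nearly all of the enterocyte list's sum of 897 to 4587 CPM on FFD and 873 to 3265 CPM in controls.

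Relatives of the 10 genes in the same families were tested alongside. Of 10 relatives, 8 passed the filter on low counts, 1 was called higher and 3 lower, with a median log2FC of 0.08. Over all genes tested, 13.2% were called higher and 4.99% lower. Fabp5, the epidermal binding protein, fell from 23.9 through 77.0 to 232 CPM in controls to 13.3 through 20.2 to 69.6 CPM on FFD (log2FC -2.01, SE 0.38, adjusted p = 0.000184, edgeR). Its direction was opposite to that of Fabp4. Fabp3, the heart form, had at most 1 count in any control library, with 0 counts in 9 of 12, and 0 to 49 counts on FFD, and it was called higher. The hepatocyte transport protein and bile acid CoA ligase Slc27a5 (log2FC -0.61, SE 0.17, adjusted p = 0.00505) and the synthetase Acsl5 (log2FC -0.54, SE 0.12, adjusted p = 0.0012) were lower, and both missed the call with library totals (-0.32 and -0.26). In the libraries with Xist above 1000 counts, 0 of the 8 were called, where 2.9% of all genes were called higher and 0.882% lower. In the libraries below, 1 was called higher and 3 lower, where 14.4% and 7.99% of all genes were. The log2FC in the sets above and below was -0.11 and -1.20 for Slc27a5 and -0.37 and -0.71 for Acsl5. Leaving out FFD replicate 9 and control replicate 10 together left Fabp3 called higher and Fabp5 called lower (log2FC -2.09), while Slc27a5 (-0.44) and Acsl5 (-0.47) were not called.

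Among 20 genes of fatty acid handling, 2 were called higher and 3 lower, with a median log2FC of -0.20. The shares over all genes tested were 13.2% higher and 4.99% lower. Lpl encodes the lipase that frees fatty acids from circulating triglyceride. It held 6.33 through 10.3 to 32.5 CPM in controls and 71.8 through 124 to 221 CPM on FFD (log2FC 3.39, SE 0.28). The diets did not overlap, as for 1.48% of all genes in that direction. Lpl was called in both Xist sets (log2FC 2.77 in the set above and 3.89 in the set below). Cav2, a caveolar protein, was called higher at a log2FC of 0.53, with 0.08 in the set above (not called) and 1.01 in the set below. Lipc, the hepatic lipase, was lower (log2FC -0.71, SE 0.17, adjusted p = 0.00201), as were Dbi, the acyl-CoA binding protein (-0.58), and Mfsd2a, a transporter of lysophosphatidylcholine (-1.01, SE 0.21, adjusted p = 0.000454). The transport enzymes of mitochondrial import, Cpt1a (-0.26) and Cpt2 (-0.28, and 0.01 with library totals), were not called. With library totals, Lipc (-0.45) and Dbi (-0.24) were not called. Without FFD replicate 9 and control replicate 10, Cav2 (0.43) and Dbi (-0.34) were not called. In the set above, 1 of the 20 was called higher and 1 lower, where 2.9% and 0.882% of all genes were. In the set below, 4 were called higher and 4 lower, where 14.4% and 7.99% of all genes were.

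Among 20 PPAR genes and their known targets, 3 were called higher and 1 lower, with a median log2FC of 0.13. These counts lay near the shares over all genes tested, 13.2% higher and 4.99% lower. Pparg ran from 2.89 through 7.30 to 14.3 CPM in controls and from 12.9 through 17.4 to 28.4 CPM on FFD, and 10 of 12 FFD libraries lay above every control (log2FC 1.31, SE 0.21). The lipid droplet genes Cidec (log2FC 2.93, SE 0.56) and Plin4 (1.82, SE 0.29) were also higher, and Ppargc1a, a coactivator, was lower (-0.80, SE 0.24, adjusted p = 0.00888) but not called with library totals (-0.57). Ppara (-0.50, adjusted p = 0.0603) and its oxidation target Ehhadh (0.28) were not called.

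**Figure D4:**
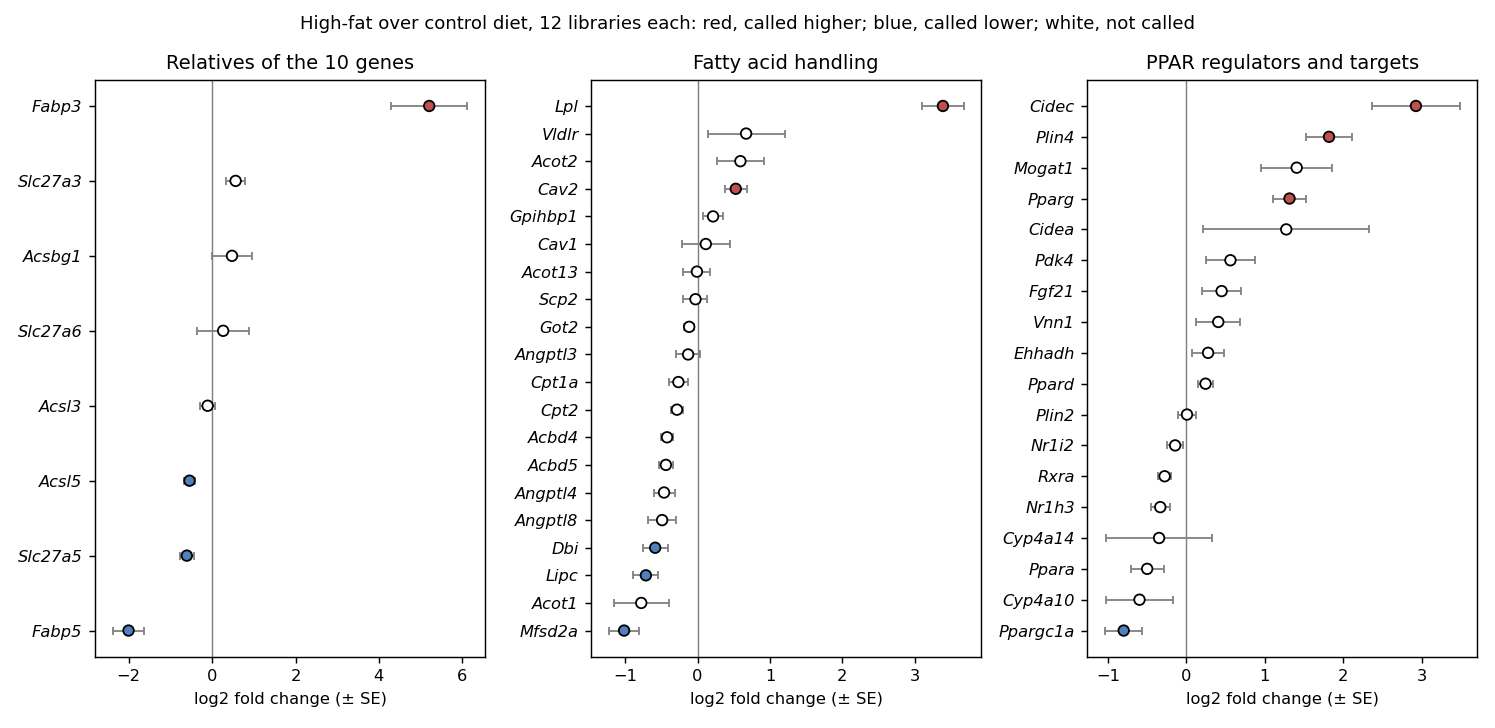
log2FC of the FFD over the control diet with SE (x axis) for tested genes of the 3 lists; red points were called higher, blue lower and white not called. Fabp3 and Fabp5 mark the ends among the relatives, and Lpl, Cidec, Plin4 and Pparg lie among the high values of the other lists.

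Cd36 and Pparg varied together between libraries of the control diet. With the means of the Xist sets subtracted, Pearson's r of log2(CPM + 1) was 0.811 over the 12 control libraries (permutation p = 0.00401, adjusted p = 0.0364) and Spearman's rho was 0.818 (permutation p = 0.00455, adjusted p = 0.0364). With the 2 libraries of most extreme Cd36 level removed it was 0.747, and it was 0.609 and 0.934 in the libraries with Xist above and below 1000 counts. On FFD r was 0.794 (permutation p = 0.0169, adjusted p = 0.073) and rho was 0.587 (permutation p = 0.0487, adjusted p = 0.117), and r was 0.408 without replicate 9, which had the lowest Cd36 level. Within the FFD libraries r was 0.921 in the Xist set above and 0.847 in the set below, which holds replicate 9. It was 0.72 on FFD with the 2 libraries of most extreme Cd36 level removed. Cd36 and the macrophage marker Cd68 had an r of 0.742 in controls (permutation p = 0.00931, adjusted p = 0.0559) and 0.162 on FFD (permutation p = 0.772, adjusted p = 0.875). In the Xist sets above and below, this r was 0.626 and 0.81 in controls and 0.872 and 0.096 on FFD. Without the 2 libraries of most extreme Cd36 level it was 0.711 in controls and 0.549 on FFD.

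No correlation of Fabp4 passed the test over the 12 libraries of a diet. In controls its r was 0.72 with Cd68 (permutation p = 0.0213, adjusted p = 0.073), and this was 0.383 once the 2 libraries most distant from the Fabp4 median were removed. It was 0.853 (permutation, adjusted p = 0.0126) without control replicate 10. On FFD r was -0.171 with Cd68 and -0.327 with Pparg, and neither passed (permutation, adjusted p = 0.676 and 0.412). Between Cd36 and Fabp4 it was 0.62 in controls (permutation, adjusted p = 0.117) and -0.254 on FFD (permutation, adjusted p = 0.191).

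**Figure D5:**
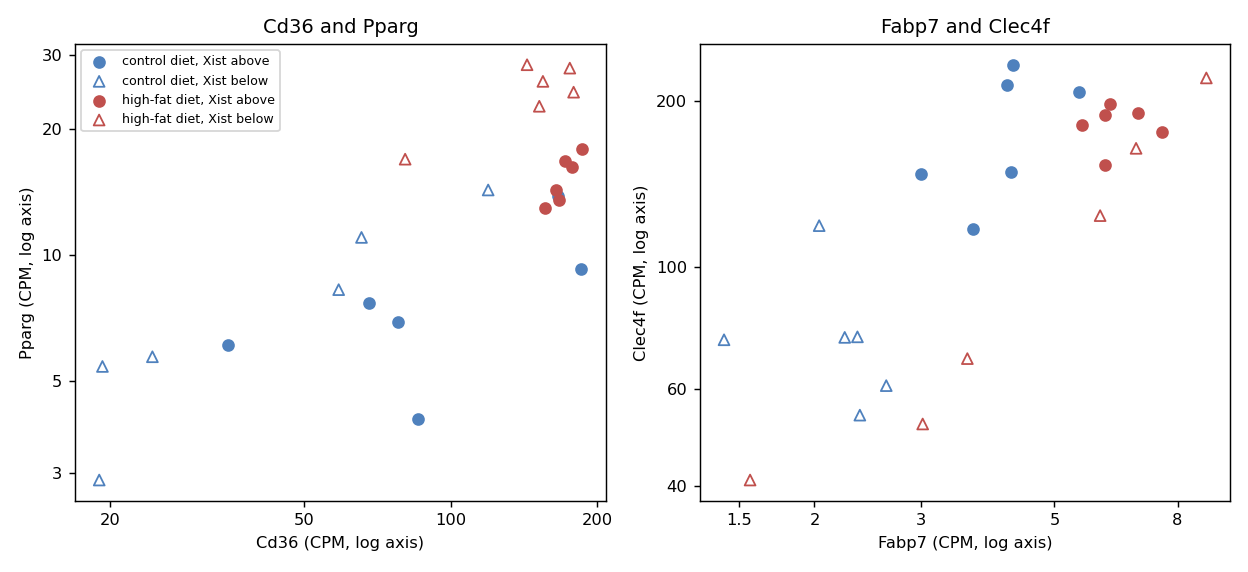
Levels in the 24 libraries (CPM, log axes) of Cd36 against Pparg and of Fabp7 against Clec4f; blue marks the control diet, red FFD, filled circles Xist above and open triangles Xist below 1000 counts. In controls Cd36 rises with Pparg (r = 0.811), and in FFD libraries with Xist below 1000 counts Fabp7 rises with Clec4f (r = 0.98).

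For each called gene, the genes most like it between libraries were taken by the mean absolute difference of standardised log2(CPM + 1) over 24 libraries, after the mean of each diet and Xist set was removed. Smaller values mean closer patterns, and 13916 genes were compared. Cd36 was closest to Tceal8 (0.366 SD) and to the lipid droplet gene Cidec (0.401 SD), where the median over all genes was 1.05 SD. Fabp1 was closest to Pctp, the phosphatidylcholine transfer protein (0.362 SD), and to Dcun1d1 (0.425 SD). Fabp4 was closest to the glycolytic enzyme Pkm (0.399 SD) and to Rgs5 (0.408 SD), Fabp7 to the Kupffer cell and sinusoidal gene Clec1b (0.496 SD) and to the Kupffer cell marker Folr2 (0.515 SD), and Acsl1 to Lpgat1 (0.431 SD) and Plpp3 (0.431 SD).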

How the data were processed

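Whole-liver poly(A) RNA was sequenced in 24 libraries. The authors deposited raw counts, 1 whole number per Ensembl gene and library. The submitters' processing notes list bcl2fastq, STAR 2.7.3a and mm10, and the study's methods name STAR with the exon quantification pipeline and PISCES for RNA-Seq, stated for a human reference. The counting program, strand setting and annotation of this mouse table are not given in the sources used here. Columns were matched to libraries by title and diets taken from the labels.

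Genes that had 1 or more counts in 12 or more libraries (17913) were fitted on the deposited counts in edgeR 4.0.16 (R 4.3.3) by quasi-likelihood, with TMM scaling and a single diet term, and p-values were adjusted over these genes by Benjamini-Hochberg. The SE is the absolute log2FC divided by the square root of F. The script was tested on simulated counts with 200 changed genes. It recovered 56.8% of those with an absolute log2FC of 1 and 71.4% of those with 1.5, with 3 false calls. GENCODE M21 (GRCm38) gave symbols for 51745 of 56205 IDs, and the other 4460 held 0.0723% of counts; it also gave positions and the longest principal transcript per gene. Promoter windows came from RefSeq (GRCm38.p6). No pair of libraries of a diet agreed within sampling noise (lowest chi-square per degree of freedom 9.48 for FFD and 17.0 for controls). At these depths 3 counts equal 0.136 to 0.207 CPM.

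Correlations used 100000 permutations within the Xist sets. The members, the lists, the Xist split and the tests were chosen with earlier results of these data known. The named genes are all members, the genes of 3 pathway lists and 8 marker lists, and the 2 genes most like each called member among those with a mean of at least 10 counts. Alternatives were limma-voom 3.58.1, DESeq2 1.42.0 and its size factors, library totals, other filters and thresholds, the replicate number as a block, the Xist sets, a pseudocount of 0.1 in place of 1, and each library left out. Whether same-numbered libraries are pairs could not be told from the counts. Of the PPAR list, 2 genes are counted but neither named nor drawn here.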

Additional observations from a re-analysis of the deposited data

Results flagged for a closer look

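The diet effect on Slc27a1 differed between the libraries with Xist above and below 1000 counts (difference in log2FC -0.98, edgeR interaction, adjusted p = 0.0148), with a log2FC of 0.15 in the set above and 1.14 in the set below. The diet effect on Acsl1 also differed (difference in log2FC 0.73, edgeR interaction, adjusted p = 0.0249), with -0.31 above and -1.04 below. The sets are not labelled groups. FFD replicate 9 and control replicate 10 held the highest and lowest Slc27a1 levels, and neither interaction was fitted without them.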

How the results depend on the processing

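The 3 members called higher and 2 called lower became 4 and 0 with library totals, 0 and 0 in libraries with Xist above 1000 counts, and 1 and 0 there without high-fat diet replicate 3. With an adjusted p of at most 0.05 and no fold threshold 4 members were lower, and with a log2FC over 1 none was (0). Over all genes, the 2372 higher and 894 lower became 3827 and 226 with library totals, 3709 and 3388 at the looser threshold, 520 and 158 with Xist above 1000 counts, and 683 and 257 there without replicate 3. There were 1431 lower with Xist below 1000 counts, 216 lower at a log2FC over 1, and 1230 higher among the 11322 genes with at least 10 counts in every library, where fewer genes were tested. With 1 library left out, 2 to 4 members were higher and 2 lower, with 2188 to 2468 and 700 to 995 of all genes. Fabp2 turned to -0.28 in libraries with Xist below 1000 counts (adjusted p = 0.453, edgeR). The number of members whose diet effect differed between the sets fell from 2 to 1 with library totals. The correlation of Fabp4 and Cd68 in controls rose to 0.853 without control replicate 10. The fits without high-fat diet replicate 9 and control replicate 10 and without replicate 3 in the Xist set were chosen after seeing the data. The cause of these changes was not tested. Depth limits the precision for low genes such as Fabp7, with a control median of 52.5 counts, and Fabp3, with at most 1 count in a control library.

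Whether libraries that share a replicate number are pairs could not be told from the counts. Deviations of same-numbered libraries from their diet means correlated from -0.0961 to 0.5775, and 6 of 24 libraries correlated best with their own number. Same-numbered libraries also share an Xist set, whose means were not removed. With the replicate number as a block, 3 members were higher and 2 lower, 2063 and 844 of all genes were called, and log2FC was 1.36 for Cd36 and 1.77 for Fabp4.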
